A study of Homo sapiens with 9 samples.

Results

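The factors that cut the nascent transcript, add its poly(A) tail and end transcription, together with the subunits of the Integrator complex, were described in A549 cells after knockdown of Cyclin K. The 35 listed genes were looked up by their symbols in the gene tables, 34 were found among 31080 reference genes, and all 34 passed the filter on low values. FIP1L1 was not analysed here. Of the 34 members, 29 stood alone on their row of the tables. The other 5 shared a row with overlapping genes, so their values cannot be split from those genes: PCF11 (with AP000873.4), PABPN1 (with BCL2L2 and BCL2L2-PABPN1), SCAF8 (with TIAM2), INTS3 (with SLC27A3) and INTS5 (with LBHD1, AP001458.2 and C11orf98).

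A549 is a human lung cancer cell line of epithelial origin. Cells were transfected for 48 h with 50 nM of a scrambled siRNA (labelled siCtrl) or of 1 of 2 siRNAs against Cyclin K, siCyclin K#1 and siCyclin K#2, with 3 libraries in each group. Nothing in the labels says that the 3 libraries came from separate cultures, so p-values measure the spread between these libraries, which may be technical. Depth, estimated from the steps between low values, was 31397000 to 33855000 reads per library. The epithelial keratins KRT8 and KRT18 were high in all libraries, and CDH1 was at 1.19 to 4.60 FPKM. KRT19 stayed at or below 0.108 FPKM and EPCAM at or below 0.279 FPKM. Markers of leukocytes (PTPRC), endothelium (PECAM1) and fibroblasts (DCN) were at or near 0, while LUM, another fibroblast marker, was at 0.297 to 0.397 FPKM in the scrambled libraries and at 1.61 to 2.70 FPKM with siCyclin K#1.

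Most human messenger RNAs end by cleavage of the growing transcript downstream of an AAUAAA signal, followed by addition of a poly(A) tail. CPSF reads that signal and cuts, CstF and CFIm bind sequences around it, and CFIIm and the nuclease XRN2 link the cut to release of RNA polymerase II. Integrator is a separate nuclease complex that forms the ends of small nuclear RNAs and ends transcription early at many promoters. Cyclin K partners CDK12 and CDK13, kinases that phosphorylate the polymerase's C-terminal domain, on which several of these factors assemble. FPKM (fragment counts scaled to transcript length and library depth) gives a gene's level per length. The values here are per gene, so the choice between polyadenylation sites was not measured.

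The siRNAs lowered their target. CCNK, which encodes Cyclin K, was at 6.90, 7.06 and 7.10 FPKM in the scrambled libraries, 0.891, 0.816 and 0.720 FPKM with siCyclin K#1, and 0.809, 0.920 and 0.802 FPKM with siCyclin K#2. The siCyclin K libraries lay far below the scrambled ones, with a log2 difference of -2.94 (SE 0.10, limma adjusted p = 1.7e-07) over both siRNAs. CDK12 was higher by 1.26 (log2, limma adjusted p = 6.9e-06), and CDK13 differed by 0.23 (limma adjusted p = 0.074). CDK13 passed with siCyclin K#2 alone (0.27, limma adjusted p = 0.026) and not with siCyclin K#1 alone (0.20, limma adjusted p = 0.071). CDK9, which the paper also names as a partner of Cyclin K, was higher by 0.92 (limma adjusted p = 5.1e-05).

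More members were lower than higher. At an adjusted p under 0.05 in limma, 11 of 34 members were lower and 4 were higher over both siRNAs. Over all 21048 genes tested, 11.5% were lower and 17.0% were higher. Among the 11243 genes with a mean of at least 1 FPKM, the range in which every member lay, 16.9% were lower and 25.2% were higher. The members' median log2 difference was -0.06 against 0.06 for all genes. All differences below are on the log2(FPKM + 0.1) scale. Without scrambled replicate 1, or without scrambled replicate 2, 7 members were lower in place of 11. When only genes with a mean of at least 1 FPKM were tested, 8 were higher in place of 4. These counts describe the list, and no test was run on the list as a whole.

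With siCyclin K#1 alone, 13 members were lower and 6 higher, against 18.1% and 26.8% of all genes, and 27.8% and 36.5% of the genes with a mean of at least 1 FPKM. With siCyclin K#2 alone, 12 were lower and 8 higher, against 15.2% and 19.8% of all genes, and 22.4% and 31.1% of those at 1 FPKM or more, and the 8 became 5 without scrambled replicate 1 or without siCyclin K#2 replicate 3. Both comparisons used the same 3 scrambled libraries. All 6 siCyclin K libraries lay below all 3 scrambled libraries for 11 members and above them for 7, against 13.7% and 18.9% of all genes, and they overlapped for 16. The changes were small. The study's methods state a fold change over 3 with p under 0.01, while its results text names a lower fold threshold. By the rule of the methods, limma called 0 members over both siRNAs, 0 for siCyclin K#1, 0 for siCyclin K#2 and 0 in their direct comparison. All genes gave 2.29%, 4.67%, 1.94% and 1.53%. At an unadjusted p under 0.05, the members called in either direction were 21, 23, 21 and 15 of 34, where all genes gave 39.0%, 50.6%, 43.0% and 38.4%.

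**Figure D1:**
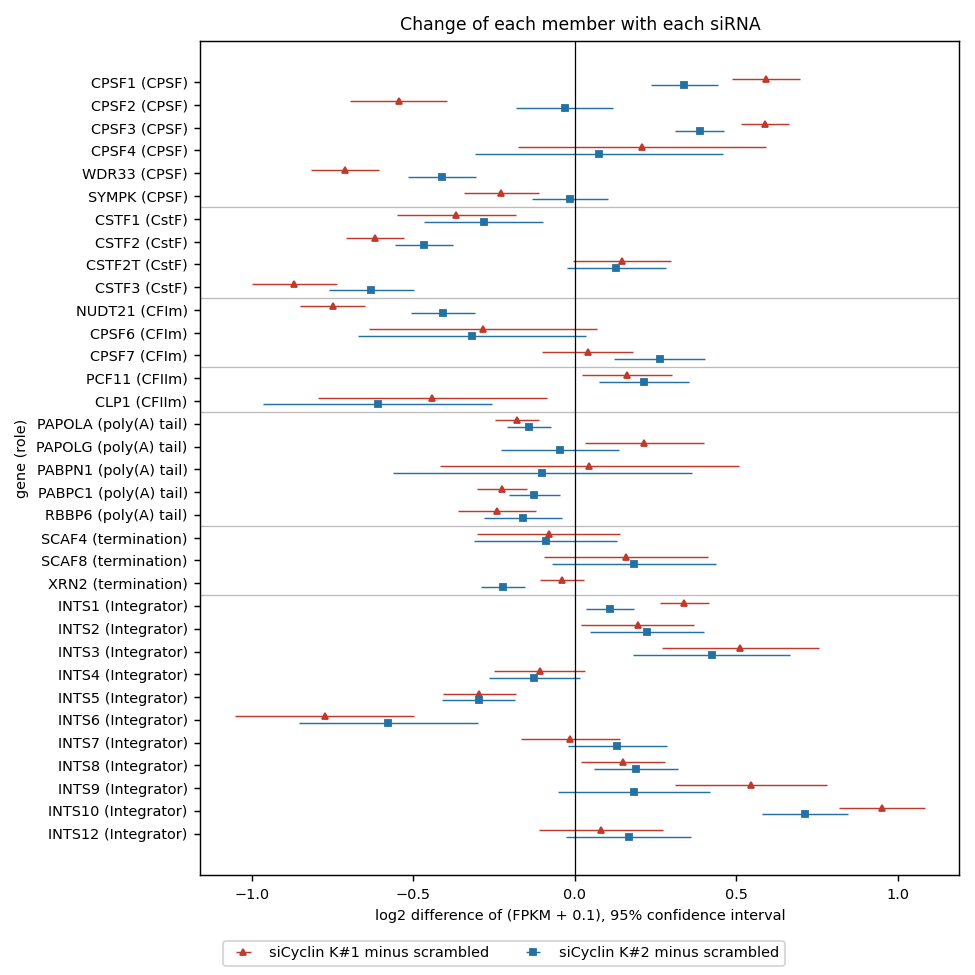
Log2 difference of FPKM + 0.1 from scrambled (horizontal axis) for 34 members ordered by role (vertical axis). Triangles are siCyclin K#1, squares are siCyclin K#2 and bars are 95% confidence intervals from limma. CSTF1, CSTF2 and CSTF3 lie left of 0 with each siRNA while CSTF2T does not, and the 11 Integrator subunits spread from INTS6 (-0.77 with siCyclin K#1) to INTS10 (0.95).

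Baseline levels spanned a wide range. In the scrambled libraries PABPC1, the main cytoplasmic poly(A)-binding protein, and XRN2, the nuclease that degrades the downstream RNA, had the highest means at 111 ± 2.89 and 111 ± 2.70 FPKM (SD, n = 3), a difference smaller than their spread. INTS6 had the lowest at 1.67 ± 0.138 FPKM, followed by INTS9 at 1.98 ± 0.137 FPKM.

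**Figure D2:**
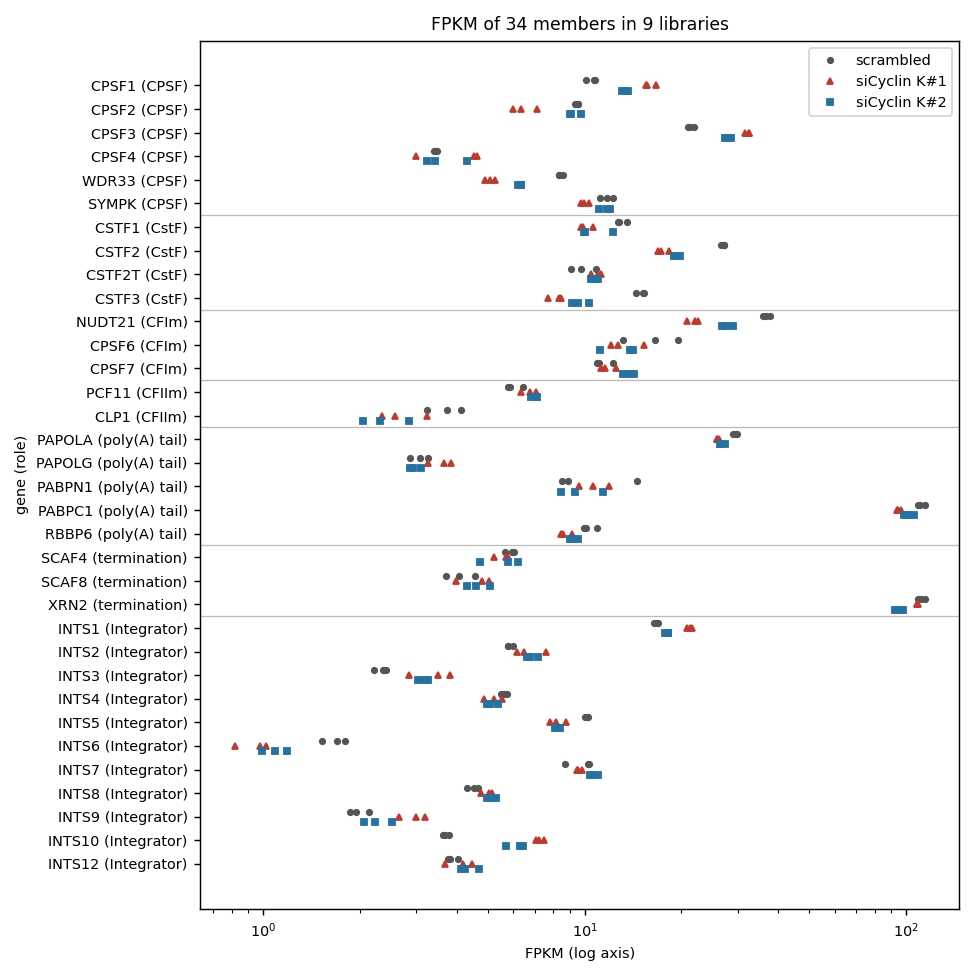
FPKM on a log axis (horizontal) for 34 members ordered by role (vertical), with 1 point per library (circles, scrambled, triangles, siCyclin K#1, and squares, siCyclin K#2). PABPC1 and XRN2 lie highest in all 9 libraries and INTS6 lies lowest.

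Within CPSF, the nuclease and its partners moved in both directions, with 2 of 6 members higher and 1 lower. Of all genes, 17.0% were higher and 11.5% lower, and of those with a mean of at least 1 FPKM, 25.2% and 16.9%. CPSF3, the endonuclease that makes the cut, was at 21.3, 21.9 and 20.9 FPKM in the scrambled libraries, 31.6, 32.5 and 32.4 FPKM with siCyclin K#1, and 28.5, 28.0 and 27.3 FPKM with siCyclin K#2. All 6 siCyclin K libraries were above the scrambled ones, and siCyclin K#1 was above siCyclin K#2. The difference was 0.49 (SE 0.07, limma adjusted p = 0.00086). CPSF1, the large scaffold subunit, was at 10.1, 10.7 and 10.8 FPKM in the scrambled libraries, 16.6, 15.6 and 15.6 FPKM with siCyclin K#1, and 13.0, 13.7 and 13.3 FPKM with siCyclin K#2. It showed the same order without overlap between any groups, with a difference of 0.47 (SE 0.09, limma adjusted p = 0.0036).

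WDR33, which contacts the AAUAAA signal, went the other way. It was at 8.31, 8.56 and 8.31 FPKM in the scrambled libraries, 5.28, 4.92 and 5.08 FPKM with siCyclin K#1, and 6.33, 6.19 and 6.35 FPKM with siCyclin K#2. The 3 groups did not overlap, with siCyclin K#1 lowest, and the difference was -0.56 (SE 0.10, limma adjusted p = 0.0028). CPSF2, the inactive relative of CPSF3, was singled out after its values were seen, because it differed most between the siRNAs. It was at 9.53, 9.55 and 9.36 FPKM in the scrambled libraries, 6.0, 7.11 and 6.34 FPKM with siCyclin K#1, and 9.0, 9.75 and 9.09 FPKM with siCyclin K#2. The siCyclin K#1 libraries lay below all others, while siCyclin K#2 overlapped scrambled. The differences were -0.54 (SE 0.07, adjusted p = 0.00016) with siCyclin K#1 and -0.03 (SE 0.07, adjusted p = 0.77) with siCyclin K#2 by limma. SYMPK, a scaffold protein, differed by -0.23 (SE 0.05, adjusted p = 0.0061) with siCyclin K#1 and -0.02 (SE 0.05, adjusted p = 0.86) with siCyclin K#2 by limma. CPSF4, a zinc finger subunit that also binds the signal, differed by 0.14 (SE 0.15, limma adjusted p = 0.53) over both.

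CstF, which binds GU-rich sequence downstream of the cut, was the group with the largest share of lower members: 3 of 4 were lower and 0 higher, with a median of -0.43. All genes gave 11.5% lower and 17.0% higher, and genes with a mean of at least 1 FPKM gave 16.9% and 25.2%. At an unadjusted p under 0.05 limma called 3 of the 4, where all genes gave 39.0%. CSTF3, the subunit that holds the complex together, was at 15.2, 15.3 and 14.5 FPKM in the scrambled libraries, 7.69, 8.45 and 8.34 FPKM with siCyclin K#1, and 10.3, 9.17 and 9.51 FPKM with siCyclin K#2. No siCyclin K library reached the scrambled range, and the difference was -0.75 (SE 0.09, limma adjusted p = 0.00026). CSTF2, the RNA-binding subunit, was at 26.5, 27.1 and 27.1 FPKM in the scrambled libraries, 17.2, 18.3 and 16.9 FPKM with siCyclin K#1, and 19.9, 18.9 and 19.4 FPKM with siCyclin K#2. Its groups were ordered in the same way without overlap, with a difference of -0.54 (SE 0.07, limma adjusted p = 0.00025). CSTF1 was at 12.7, 13.5 and 12.8 FPKM in the scrambled libraries, 9.74, 10.6 and 9.86 FPKM with siCyclin K#1, and 9.95, 10.0 and 12.2 FPKM with siCyclin K#2. Its siCyclin K libraries were all below scrambled but overlapped each other, and the difference was -0.32 (SE 0.08, limma adjusted p = 0.015). Without scrambled replicate 2 the adjusted p in limma was 0.070, which left 2 of 4 CstF members lower.

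CSTF2T, the autosomal paralog of CSTF2, did not pass the threshold. It was at 9.78, 9.04 and 10.8 FPKM in the scrambled libraries, 11, 10.5 and 11.3 FPKM with siCyclin K#1, and 10.9, 11 and 10.5 FPKM with siCyclin K#2. The groups overlapped, and the difference was 0.14 (SE 0.07, limma adjusted p = 0.18), 95% confidence interval -0.02 to 0.29.

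**Figure D3:**
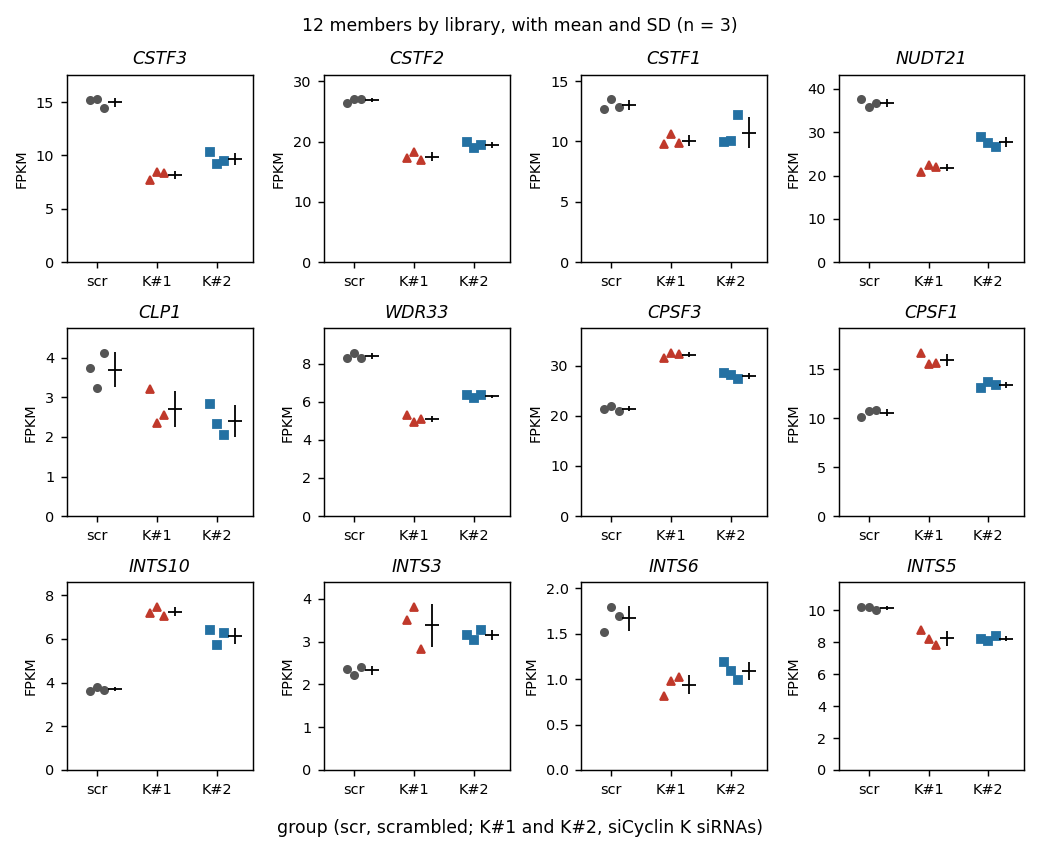
FPKM (vertical axis, from 0) by group (horizontal axis) for 12 members, with 1 point per library and the mean and SD (n = 3) beside each group. CSTF3, CSTF2, NUDT21 and WDR33 were lowest with siCyclin K#1, and CPSF3, CPSF1 and INTS10 were highest with it.

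The ratio of CSTF2 to CSTF2T was 2.73 ± 0.247 in scrambled, 1.60 ± 0.130 in siCyclin K#1 and 1.80 ± 0.0736 in siCyclin K#2 libraries (SD, n = 3), with no overlap between siCyclin K and scrambled libraries. An exact two-sided permutation test of 6 against 3 libraries that doubles the smaller tail gave p = 0.0238, the smallest it allows, and 0.0952 after Benjamini-Hochberg adjustment over the 4 paralog ratios examined, so it did not pass 0.05. With the absolute difference as the exact permutation statistic, tried after the ratios and their first p-values had been seen, the adjusted p was 0.0476. The call thus depends on how the tails are counted.

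The other 3 ratios did not pass under either count. CPSF6 to CPSF7 was 1.45 ± 0.349, 1.13 ± 0.0798 and 0.954 ± 0.148 in scrambled, siCyclin K#1 and siCyclin K#2. PAPOLA to PAPOLG was 9.64 ± 0.701, 7.30 ± 0.594 and 9.02 ± 0.454. SCAF4 to SCAF8 was 1.44 ± 0.147, 1.22 ± 0.194 and 1.19 ± 0.158, where SCAF8 shares its row with TIAM2. The adjusted exact p was 0.119 for each of these 3.

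**Figure D4:**
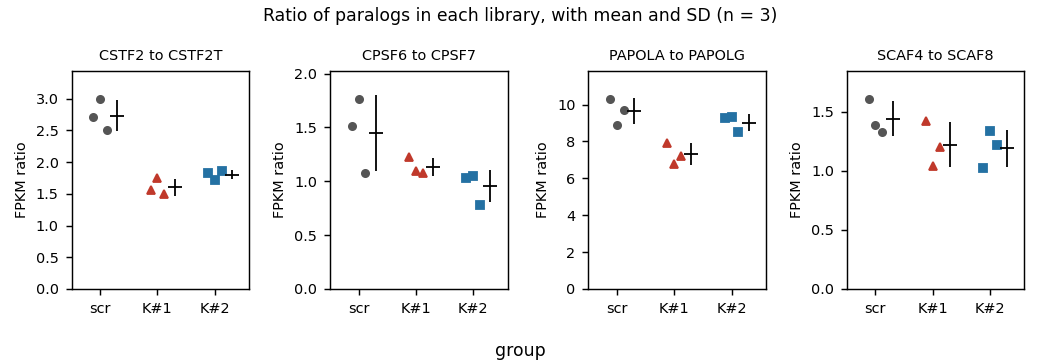
Ratio of FPKM (vertical axis, from 0) of 4 paralog pairs by group (horizontal axis), with 1 point per library and the mean and SD (n = 3). Only for CSTF2 to CSTF2T do both siCyclin K groups lie wholly below scrambled among these 4 pairs.

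In CFIm, which binds UGUA motifs upstream of the cut and steers the choice of site, NUDT21 was lower. This subunit, which reads the motif, was at 37.7, 35.8 and 36.7 FPKM in the scrambled libraries, 20.9, 22.5 and 22.1 FPKM with siCyclin K#1, and 28.9, 27.4 and 26.7 FPKM with siCyclin K#2. The groups were fully separated with siCyclin K#1 lowest, and the difference was -0.58 (SE 0.11, limma adjusted p = 0.0031). CPSF6 and CPSF7, its alternative partners, did not pass over both siRNAs. CPSF6 was at 16.6, 19.5 and 13.2 FPKM in the scrambled libraries, 15.3, 12.7 and 12.1 FPKM with siCyclin K#1, and 14.1, 13.8 and 11.2 FPKM with siCyclin K#2. Its scrambled libraries were widely spread and overlapped the rest, with a difference of -0.30 (SE 0.13, limma adjusted p = 0.12). CPSF7 was at 11, 11.1 and 12.3 FPKM in the scrambled libraries, 12.5, 11.5 and 11.2 FPKM with siCyclin K#1, and 13.7, 13.2 and 14.3 FPKM with siCyclin K#2. It was higher with siCyclin K#2 only among the single-siRNA tests, at 0.04 (SE 0.06, adjusted p = 0.64) with siCyclin K#1 and 0.26 (SE 0.06, adjusted p = 0.0097) with siCyclin K#2 by limma.

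In CFIIm, CLP1 was lower and PCF11 did not pass over both siRNAs. PCF11, which binds the polymerase's C-terminal domain and promotes termination, was at 5.76, 5.86 and 6.43 FPKM in the scrambled libraries, 6.79, 7.07 and 6.36 FPKM with siCyclin K#1, and 6.80, 7.07 and 7.09 FPKM with siCyclin K#2. One siCyclin K#1 library fell inside the scrambled range. The differences were 0.16 (SE 0.06, adjusted p = 0.061) with siCyclin K#1 and 0.21 (SE 0.06, adjusted p = 0.025) with siCyclin K#2 by limma, and 0.19 (limma adjusted p = 0.074) over both. CLP1, an RNA kinase, was at 3.74, 3.25 and 4.13 FPKM in the scrambled libraries, 3.23, 2.35 and 2.57 FPKM with siCyclin K#1, and 2.85, 2.32 and 2.05 FPKM with siCyclin K#2. Its highest siCyclin K library was only just under the lowest scrambled one, and about 182 reads lay behind its lowest value. The difference was -0.53 (SE 0.15, limma adjusted p = 0.023). The call was lost without scrambled replicate 1 (limma adjusted p = 0.078) and without scrambled replicate 3 (limma adjusted p = 0.104).

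Of the 5 genes for the poly(A) tail, 3 were lower and 0 higher, each by a small amount. Of all genes, 11.5% were lower and 17.0% higher, and of those with a mean of at least 1 FPKM, 16.9% and 25.2%. PAPOLA, the main nuclear poly(A) polymerase, was at 29.6, 28.9 and 29.8 FPKM in the scrambled libraries, 25.9, 25.9 and 26.2 FPKM with siCyclin K#1, and 26.5, 27.2 and 26.3 FPKM with siCyclin K#2. The siCyclin K libraries were all below scrambled, with a difference of -0.16 (SE 0.05, limma adjusted p = 0.029). PABPC1 differed by -0.17 (SE 0.05, limma adjusted p = 0.034) and RBBP6, which is needed to activate the cut, by -0.20 (SE 0.07, limma adjusted p = 0.046). Of 18 alternatives, the call was lost in 6 for PAPOLA, 10 for PABPC1 and 11 for RBBP6, and leaving out any 1 scrambled library left 0 of the 3. PAPOLG, a second nuclear polymerase, was at 2.87, 3.25 and 3.07 FPKM in the scrambled libraries, 3.26, 3.83 and 3.64 FPKM with siCyclin K#1, and 2.87, 2.93 and 3.09 FPKM with siCyclin K#2. It was the member whose differences from scrambled had opposite signs and which differed between the siRNAs, at 0.22 (SE 0.08, adjusted p = 0.057) with siCyclin K#1 and -0.05 (SE 0.08, adjusted p = 0.72) with siCyclin K#2 by limma. Its call between the siRNAs (limma adjusted p = 0.039) was lost in 10 of 18 alternatives. PABPN1, the nuclear poly(A)-binding protein, ranged from 8.45 to 14.6 FPKM, the highest in a scrambled and the lowest in a siCyclin K#2 library.

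With the values as deposited, 0 of the 3 termination factors passed over both siRNAs in limma, also at an unadjusted p under 0.05. SCAF4 and SCAF8 bind the polymerase's C-terminal domain and prevent early polyadenylation. SCAF4 was at 5.96, 5.64 and 6.05 FPKM in the scrambled libraries, 5.69, 5.23 and 5.78 FPKM with siCyclin K#1, and 4.71, 5.76 and 6.20 FPKM with siCyclin K#2. SCAF8 was at 3.71, 4.06 and 4.55 FPKM in the scrambled libraries, 3.99, 5.03 and 4.79 FPKM with siCyclin K#1, and 4.61, 4.31 and 5.09 FPKM with siCyclin K#2. Both overlapped scrambled, with differences of -0.09 (95% confidence interval -0.29 to 0.12) and 0.17 (95% confidence interval -0.06 to 0.40). XRN2 was lower with siCyclin K#2, at -0.04 (SE 0.03, adjusted p = 0.34) with siCyclin K#1 and -0.22 (SE 0.03, adjusted p = 0.0005) with siCyclin K#2 by limma. Its siCyclin K#1 value depended on the scaling: it was 0.089 under quantile normalization (limma adjusted p = 0.045) and -0.11 under median-ratio rescaling (limma adjusted p = 0.021). Median-ratio rescaling also called XRN2 lower over both siRNAs, at -0.20 (limma adjusted p = 0.045).

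Of the 11 Integrator subunits, 2 were higher, 2 lower and 7 not past the threshold over both siRNAs, shares near the 17.0% and 11.5% of all genes. When only genes with a mean of at least 1 FPKM were tested, INTS1, INTS2 and INTS8 were also called, giving 5 higher and 2 lower. Each siRNA alone gave 4 higher and 2 lower, or 36.4% and 18.2% of the subunits. For siCyclin K#1, 36.5% of genes with a mean of at least 1 FPKM were higher and 27.8% lower. For siCyclin K#2 these shares were 31.1% and 22.4%. The higher subunits for siCyclin K#2 included INTS8 (0.19, limma adjusted p = 0.03), whose call was lost in 7 of 18 alternatives. Their count was 2 under median-ratio rescaling or quantile normalization, and 5 when only genes with a mean of at least 1 FPKM were tested. INTS10 had the largest change of all members. It was at 3.63, 3.79 and 3.68 FPKM in the scrambled libraries, 7.21, 7.47 and 7.06 FPKM with siCyclin K#1, and 6.41, 5.71 and 6.28 FPKM with siCyclin K#2. Every siCyclin K library was above 5.7 FPKM and every scrambled one below 3.8 FPKM, and the difference was 0.83 (SE 0.10, limma adjusted p = 0.00017). INTS3, which also belongs to a single-stranded DNA-binding complex, was at 2.36, 2.21 and 2.41 FPKM in the scrambled libraries, 3.51, 3.82 and 2.84 FPKM with siCyclin K#1, and 3.16, 3.04 and 3.27 FPKM with siCyclin K#2. It did not overlap scrambled, with a difference of 0.47 (SE 0.11, limma adjusted p = 0.0084) for the row it shares with SLC27A3.

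INTS6, which links Integrator to the phosphatase PP2A, was the lowest expressed and was lower. It was at 1.53, 1.80 and 1.70 FPKM in the scrambled libraries, 0.818, 0.978 and 1.02 FPKM with siCyclin K#1, and 1.19, 1.09 and 0.989 FPKM with siCyclin K#2. The ranges did not overlap, and the difference was -0.68 (SE 0.13, limma adjusted p = 0.0041). INTS5, a core subunit, was at 10.2, 10.2 and 9.99 FPKM in the scrambled libraries, 8.75, 8.18 and 7.83 FPKM with siCyclin K#1, and 8.21, 8.10 and 8.38 FPKM with siCyclin K#2. The siCyclin K libraries were below scrambled to a like extent, with a difference of -0.30 (SE 0.06, limma adjusted p = 0.0049) for its shared row. INTS1, the largest subunit, was higher with each siRNA tested alone, at 0.34 (SE 0.03, adjusted p = 4.2e-05) with siCyclin K#1 and 0.11 (SE 0.03, adjusted p = 0.032) with siCyclin K#2 by limma, and 0.22 (limma adjusted p = 0.063) over both. The siCyclin K#2 call of INTS1 was lost in 8 of 18 alternatives, with values from 0.055 to 0.122. INTS9, the partner of the catalytic subunit, was higher with siCyclin K#1, at 0.55 (SE 0.10, adjusted p = 0.0023) with siCyclin K#1 and 0.18 (SE 0.10, adjusted p = 0.21) with siCyclin K#2 by limma. The differences of INTS2, INTS4, INTS7, INTS8 and INTS12 over both siRNAs ran from -0.12 to 0.21.

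The siRNAs were then compared with each other. Relative to siCyclin K#2, siCyclin K#1 gave 7 members at a higher and 7 at a lower level with an adjusted p under 0.05 in limma, against 17.1% and 12.3% of all genes. Each 7 is 20.6% of the members, and among genes with a mean of at least 1 FPKM 23.7% were higher and 20.8% lower, so neither share of members exceeded that background. The higher count was 4 without siCyclin K#1 replicate 2, and the lower count was 4 without siCyclin K#2 replicate 3. The difference was largest for CPSF2 (-0.51, SE 0.07), followed by INTS9 (0.36, SE 0.10) and NUDT21 (-0.34, SE 0.04). CCNK itself was at a mean of 0.809 ± 0.0857 FPKM with siCyclin K#1 and 0.844 ± 0.0661 FPKM with siCyclin K#2, which overlap.

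**Figure D5:**
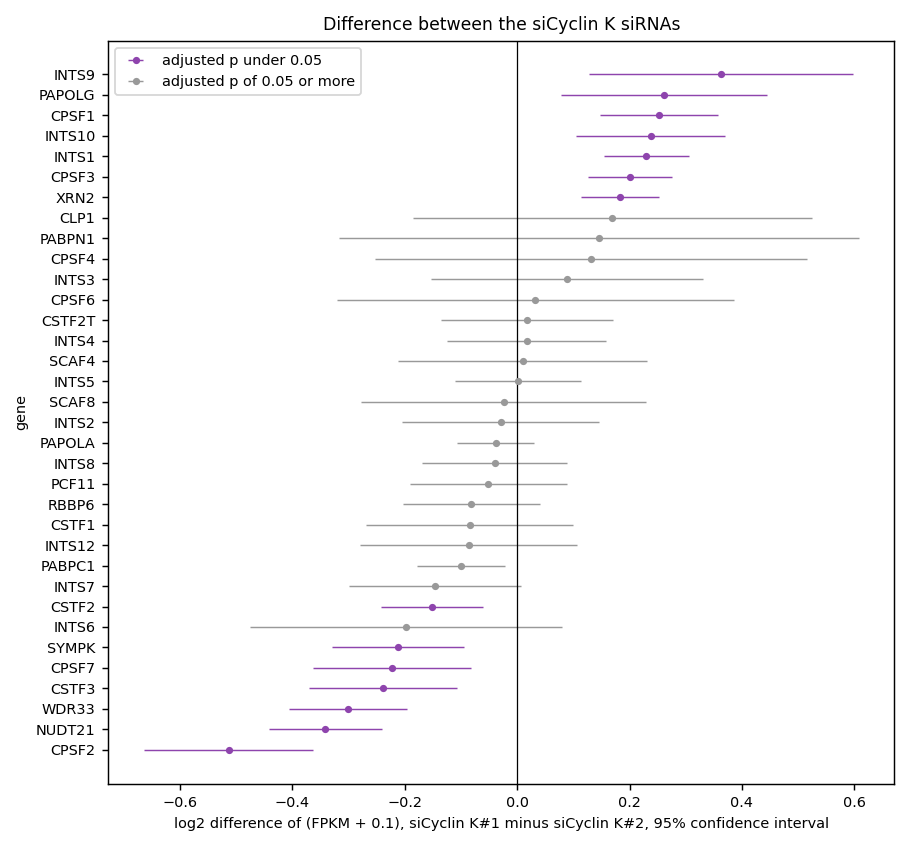
Log2 difference of FPKM + 0.1 between siCyclin K#1 and siCyclin K#2 (horizontal axis) for 34 members in order of size (vertical axis), with 95% confidence intervals from limma. The 14 coloured members have an adjusted p under 0.05, from CPSF2 at -0.51 to INTS9 at 0.36.

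An siRNA can lower other transcripts whose 3′ UTR matches bases 2 to 8 of its guide strand, so such sites were counted in the longest annotated 3′ UTR of each gene. The site for siCyclin K#1 (GTGATAA) was in 5 of 34 members and in 10.6% of 11406 genes tested. The site for siCyclin K#2 (TACAGGT) was in 7 of 34 members and in 13.2% of genes. Of the 7 members at a lower level with siCyclin K#1 in that direct comparison, 1 held the siCyclin K#1 site (NUDT21) and 4 held the siCyclin K#2 site (CPSF2, WDR33, NUDT21 and CPSF7). Of the 7 higher members, 0 held either. The 4 named with the siCyclin K#2 site were at a higher level with siCyclin K#2 than with siCyclin K#1. The counts take no account of 3′ UTR length. It was 10401, 5301, 3579 and 2069 bases for CPSF2, WDR33, NUDT21 and CPSF7. Among the 7 higher members it was 4925 bases for PAPOLG and from 84 (CPSF3) to 489 (XRN2) for the others. A site for each siRNA in NUDT21, which holds both, and in INTS6, lower with each siRNA, is given below with 10 bases on each side, from GENCODE 29 transcripts on GRCh38, the matching 7 bases in capitals. A match is a description only, and its part in any change was not tested.
NUDT21, siCyclin K#1 site, chr16:56432510-56432536 (- strand): gtaaacaaatGTGATAAtgtttattta
NUDT21, siCyclin K#2 site, chr16:56430691-56430717 (- strand): tctggtcagtTACAGGTggatccccaa
INTS6, siCyclin K#1 site, chr13:51441357-51441383 (- strand): ttgcagaactGTGATAAagattaagga
INTS6, siCyclin K#2 site, chr13:51448087-51448113 (- strand): ttcttattgtTACAGGTcatcctgttt

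Promoters of 27 members were found in the RefSeq table of GRCh38.p14 (250 bases before to 50 after the start). A set of 6 motifs was searched on both strands. GGGCGG was in 19 member promoters and 44.6% of 27305 promoters, CCAAT in 13 and 35.7%, CCGGAAG in 9 and 10.7%, TGACGTCA in 4 and 1.98%, CGCATGCG in 1 and 2.19%, and TATAAA in 0 and 12%. The 27305 promoters were not limited to genes expressed here, while every member had a mean of at least 1 FPKM. These shares are thus not a comparison with other expressed genes. The promoters of CSTF3 and CSTF2, lower together, and of CPSF3, which was higher, are shown with these motifs in capitals on either strand.
CSTF3 promoter, chr11:33161431-33161730 (- strand): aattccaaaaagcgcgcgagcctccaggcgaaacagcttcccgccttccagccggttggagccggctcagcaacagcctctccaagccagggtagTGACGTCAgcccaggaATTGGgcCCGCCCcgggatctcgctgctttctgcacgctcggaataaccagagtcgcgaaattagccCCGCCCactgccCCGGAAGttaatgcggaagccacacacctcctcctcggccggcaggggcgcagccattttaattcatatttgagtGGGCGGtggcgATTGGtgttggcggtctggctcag
CSTF2 promoter, chrX:100820141-100820440 (+ strand): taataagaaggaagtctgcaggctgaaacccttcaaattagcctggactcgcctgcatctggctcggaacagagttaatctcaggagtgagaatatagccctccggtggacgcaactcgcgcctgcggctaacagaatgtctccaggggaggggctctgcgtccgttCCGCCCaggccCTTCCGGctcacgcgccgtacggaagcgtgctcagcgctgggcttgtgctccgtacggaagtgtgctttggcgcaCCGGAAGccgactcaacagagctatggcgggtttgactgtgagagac
CPSF3 promoter, chr2:9423404-9423703 (+ strand): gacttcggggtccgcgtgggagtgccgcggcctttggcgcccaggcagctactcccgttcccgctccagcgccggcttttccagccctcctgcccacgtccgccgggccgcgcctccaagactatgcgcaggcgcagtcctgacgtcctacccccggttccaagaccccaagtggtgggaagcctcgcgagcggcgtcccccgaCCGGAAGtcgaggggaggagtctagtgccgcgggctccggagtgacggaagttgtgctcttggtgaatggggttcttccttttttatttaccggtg

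Over the 29 members alone on their row, Spearman's rho between the annotated span of the gene and the log2 difference over both siRNAs was -0.02, as a description across genes that share the same libraries.

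Other factors of the same pathways were counted in the same fit. These counts are a description, and no test was run on any list. Over both siRNAs, 11.5% of all genes tested were lower and 17.0% higher. Among genes with a mean of at least 1 FPKM, 16.9% were lower and 25.2% higher. Of 10 further Integrator-associated genes tested, 3 were lower and 1 higher over both siRNAs. They included NABP1, a single-stranded DNA-binding protein, at -1.87 (SE 0.15, limma adjusted p = 1.7e-05), WDR73 at -0.67 (SE 0.10, limma adjusted p = 0.0011), and INIP at -0.55 (SE 0.16, limma adjusted p = 0.029).

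Of 19 further cleavage and termination factors tested, 6 were lower and 3 higher over both siRNAs, against 11.5% and 17.0% of all genes. RPRD1A, which binds the polymerase's C-terminal domain, was at 10.8, 11.6 and 11.6 FPKM in the scrambled libraries, 2.77, 2.49 and 2.11 FPKM with siCyclin K#1, and 3.57, 3.37 and 3.50 FPKM with siCyclin K#2. All 6 siCyclin K libraries were far below scrambled, with a difference of -1.92 (SE 0.16, limma adjusted p = 3e-05). PPP1R10, the targeting subunit of a nuclear PP1 phosphatase, differed by -1.27 (SE 0.16, limma adjusted p = 0.00032) and CPEB1, a cytoplasmic polyadenylation factor, by -0.75 (SE 0.12, limma adjusted p = 0.0016).

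Of 7 histone pre-mRNA processing genes, 2 were lower and 1 higher, the last being ZNF473 at 0.93 (SE 0.09, limma adjusted p = 7e-05). Of 24 cap-binding and nuclear exosome genes, 11 were lower and 3 higher, against 11.5% and 17.0% of all genes. They included NCBP2 at -0.81 (SE 0.22, limma adjusted p = 0.023) and EXOSC4 at -0.76 (SE 0.09, limma adjusted p = 0.00026). Among the higher genes, ZC3H18 had the largest difference, at 0.70 (SE 0.10, limma adjusted p = 0.00078). With siCyclin K#1 alone NCBP2 did not pass (-0.59, limma adjusted p = 0.065), its libraries being at 17.9, 9.32 and 18.6 FPKM. With siCyclin K#2 alone NCBP2 was at -1.02 (limma adjusted p = 0.0078). Of 8 genes for proteins of the U1 snRNP, a particle that shields transcripts from early polyadenylation, 1 was lower and 1 higher. The lower was SNRPE, whose protein other snRNPs share (-0.28, limma adjusted p = 0.0059), and the higher was SNRPA (0.43, limma adjusted p = 0.00094).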

How the data were processed

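RNA-seq of 9 A549 libraries was analysed. Per the labels and methods, the authors sequenced 150-base read pairs and calculated gene FPKM with StringTie 1.3.3b; the aligner is not given in the sources used here. The deposited FPKM values are normalized for depth and length and are not counts. Each file held 56252 features. Features of 1 reference gene were summed, and 32530 of the 33059 gene identifiers shared with GENCODE 29 (GRCh38) had identical coordinates.

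The values were taken as log2(FPKM + 0.1), keeping 21048 genes with at least 0.1 FPKM in at least 3 libraries. limma 3.58.1 in R 4.3.3 (lmFit, eBayes with trend, Benjamini-Hochberg over all genes) was run as 6 siCyclin K against 3 scrambled libraries, and as 3 groups for each siRNA and their difference. Exact permutation tests used scipy 1.17.1. The step was tested on simulated data. Depth was estimated from low values, 95.9% to 96.5% of which were whole reads within 0.02. No interval covers more than these libraries.

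Members and lists were chosen with earlier results of these data known. Values in every library were given for the 12 largest changes past the threshold that had the same direction with each siRNA, paralog pairs, PCF11, members that differed between the siRNAs with opposite signs against scrambled, and CCNK; at most 3 genes were named from each other pathway list, and CPSF2 was added after its values were seen. Alternatives were other pseudocounts, filters, scalings, variance settings, a replicate block, stricter thresholds and leaving out libraries. The ratios of paralogs were tested in addition to single members, and a second permutation statistic for them was added after their values had been seen. Deviations from the group means were unrelated between libraries of the same number (mean r -0.0058 over 11243 genes), so the block was not used in the reported tests. Some of the seed sites are not reported here.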

Additional observations from a re-analysis of the deposited data

Results flagged for a closer look

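For 14 members the direct test between the siRNAs passed an adjusted p of 0.05 in limma, as a log2 difference of siCyclin K#1 minus siCyclin K#2. The 7 lower with siCyclin K#1 were CPSF2 (-0.51), WDR33 (-0.30), SYMPK (-0.21), CSTF2 (-0.15), CSTF3 (-0.24), NUDT21 (-0.34) and CPSF7 (-0.22). The 7 higher with it were CPSF1 (0.25), CPSF3 (0.20), PAPOLG (0.26), XRN2 (0.18), INTS1 (0.23), INTS9 (0.36) and INTS10 (0.24). The calls of PAPOLG, CSTF2, INTS9 and CPSF7 were lost in 10, 6, 6 and 5 of 18 alternatives. LUM moved in the same comparison, with 1.61 to 2.70 FPKM with siCyclin K#1 and 0.300 to 0.340 FPKM with siCyclin K#2, and its part in these differences was not tested.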

How the results depend on the processing

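With a mean of at least 1 FPKM as the filter, 8 members were higher over both siRNAs in place of 4, and 10 in place of 6 with siCyclin K#1. With siCyclin K#2, 5 in place of 8 were higher under median-ratio rescaling, quantile normalization and the replicate block. At an adjusted p under 0.01, 6 in place of 11 were lower over both siRNAs, 4 in place of 8 were higher with siCyclin K#2, and 4 were higher and 3 lower between the siRNAs in place of 7 and 7. Leaving out 1 library gave 4 to 5 higher and 7 to 11 lower members over both siRNAs, 6 to 8 and 12 to 13 with siCyclin K#1, 5 to 9 and 9 to 12 with siCyclin K#2, and 4 to 7 and 4 to 8 between them. The 7 lower came without scrambled replicate 1 or 2, the 5 higher with siCyclin K#2 without scrambled replicate 1 or siCyclin K#2 replicate 3, the 4 higher between the siRNAs without siCyclin K#1 replicate 2, and the 4 lower without siCyclin K#2 replicate 3. The cause was not tested. XRN2 with siCyclin K#1 turned to 0.089 under quantile normalization (limma adjusted p = 0.045), from -0.04, and to -0.11 under median-ratio rescaling (limma adjusted p = 0.021), which also called it lower over both siRNAs (-0.20, limma adjusted p = 0.045). Over both siRNAs, PAPOLA, PABPC1 and RBBP6 lost their call without the trend and under the replicate block. CLP1 lost it without scrambled replicate 1 or 3 and CSTF1 without scrambled replicate 2. Between the siRNAs, PAPOLG lost its call in 10, CSTF2 and INTS9 in 6 and CPSF7 in 5 of 18 alternatives. With siCyclin K#2, INTS1 lost its call in 8, and PCF11 and INTS8 in 7. With the absolute difference as the permutation statistic, the adjusted exact p of the CSTF2 to CSTF2T ratio went from 0.0952 to 0.0476; this alternative was added after the ratios had been seen, and the form first run is the one reported, which does not pass. The other 3 ratios stayed above 0.05 at 0.0833.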
